A study of Drosophila melanogaster with 2 samples.

Results

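The genes described here are the Cpr genes of Drosophila melanogaster, a family of cuticle protein genes named by cytological position. They were chosen by symbol: every protein-coding gene on the 6 main chromosome arms whose Ensembl name begins with Cpr and a cytological number, which gave 70 of 13945 genes. The study mapped the binding of the transcription factor Hand by chromatin immunoprecipitation and sequencing (ChIP-seq). There was a single group, whole embryos aged 6 to 24 hours, of both sexes together, from a transgenic line (labelled Hand-GFP) that stably expressed Hand with green fluorescent protein joined to its C terminus. An antibody against that tag was used, and the group had 2 biological replicates, labelled replicate 2 and replicate 3. There was no other genotype or treatment, so no contrast between groups was possible, and nothing in the labels says that the tagged cells were separated from the rest of the embryo.

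Cuticle is the chitin and protein coat that the epidermis, the tracheae and the fore- and hindgut secrete on their apical face. In the tracheae and gut that face lines the lumen. Most Cpr proteins carry the Rebers and Riddiford (R&R) domain, which binds chitin, and they are secreted as the embryonic cuticle is laid down and again at each moult. The Hand protein, of the basic helix-loop-helix class, acts in the heart, the pericardial cells, the lymph gland and the visceral muscle, tissues that do not make the body cuticle.

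The library labelled replicate 2 stood apart at the gene that codes for the tagged factor. Within 90 kb centred on Hand replicate 2 listed 4 summits, while replicate 3 listed 36. Over the arms each replicate's list had 22.4 summits per 100 kb, so replicate 2 was below that rate there and replicate 3 above it. At Hand itself (body and 2 kb) replicate 2 listed 0 and replicate 3 listed 4. The pooled list had 2 summits at Hand and the thresholded list 1. Presence of the Hand-GFP construct in replicate 2 cannot be told from these lists. Peaks of that library are therefore Hand-GFP peaks by label only, as are those of the pooled and thresholded lists made with it. The reason for the gap between the libraries was not tested. Most counts of genes with a peak are also given for replicate 3 alone, while distances rest on the thresholded list.

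No Cpr gene had a peak that passed the authors' reproducibility threshold. The thresholded list (the authors' optimal list from their reproducibility step, derived from both replicates) held 3310 peaks. Some of its peaks had no summit within 100 bp in 1 of the replicates. Of 70 Cpr genes, 0 had a summit of the thresholded list in the gene body or within 2 kb, against 3579 of all 13945 protein-coding genes (25.7%). The family was singled out with peak positions already known, so this count and the comparisons below are descriptions and carry no test. Weak peaks were present. The pooled list, called by the authors on both replicates together, held 30000 peaks down to a signal of 24.2, and 25 of 70 Cpr genes (35.7%) had one of them, against 74.4% of all genes. In replicate 2's own list of 30000 peaks 34 Cpr genes (48.6%) had a summit, against 76.9% of all genes, and in replicate 3's list 28 did (40.0%), against 74.6%. The mean over replicates was 44.3% ± 6.06 of Cpr genes and 75.7% ± 1.63 of all genes (SD, n = 2 each).

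The strongest peaks of each replicate on its own were also counted. Without replicate 2, the 3310 strongest peaks of replicate 3 reached 0 of 70 Cpr genes and 26.3% of all genes. The 3310 strongest of replicate 2 reached 1 Cpr gene, Cpr51A (signal 39.4), and 24.5% of all genes.

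**Figure D1:**
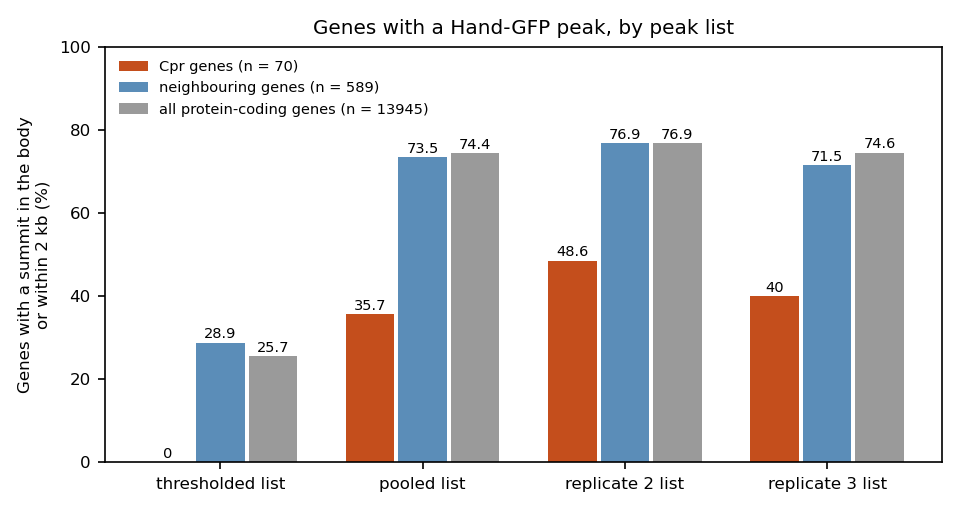
Bars give the share of genes with at least 1 summit in the body or within 2 kb (%, vertical axis) in the authors' thresholded and pooled lists and in each replicate's list, for the 70 Cpr genes, the 589 other genes within 50 kb of a Cpr gene, and all 13945 protein-coding genes. The Cpr bar is at 0 in the thresholded list and is the lowest of the 3 in every list, while the neighbouring genes stay near all genes.

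Cpr genes are short, and a short gene offers less room for a summit. Their median length was 1094 bp, against 2166 bp for all protein-coding genes. Among genes with lengths in the middle quartiles of the family, 0 of 34 Cpr genes had a thresholded summit, against 18.2% of all 4560 genes of that length. For the pooled list the shares at that length were 8 of 34 Cpr genes (23.5%) and 66.8% of all genes. For replicate 3's own list they were 12 of 34 (35.3%) and 67.0%. Over the family's whole length range, from 457 to 18590 bp, 23.6% of all genes had a thresholded summit and 73.4% a pooled one. The repeated content of the sequence was also measured, because reads from repeats cannot be placed. In the gene bodies with 2 kb on each side, the mean share of 31-base words that recur elsewhere on the arms was 2.71% for Cpr genes, 2.17% for neighbouring genes and 3.62% for all genes, and 4 Cpr genes exceeded 10%. These were the tandem copies Cpr65Ax1 (66.1%) and Cpr65Ax2 (47.0%), Cpr73D (40.2%) and Cpr65Au (15.3%). The windows of Cpr genes had a median of 57.2% A or T, those of neighbouring genes 55.5% and those of all genes 56.1%.

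The weak peaks at Cpr genes recurred between the replicates about as often as other weak peaks did. A summit was listed for 23 Cpr genes (32.9%) in both replicates, against 67.2% of all genes. Another 11 had one in replicate 2 alone and 5 in replicate 3 alone, and 31 (44.3%) had one in neither, against 15.8% of all genes. The pooled list placed 35 summits at the 25 genes, of which 4 were in reach of 2 Cpr genes. Of these 35, 10 had a summit within 100 bp in both replicates (28.6%), against 30.1% of the other peaks that the threshold left out. Replicate 3 matched 24 of the 35 and replicate 2 matched 18. The median pooled signal of the 35 was 34.8, with a range of 24.4 to 86.5, and the median of all 26690 pooled peaks outside the thresholded list was 35.1. In the pooled list the family's peaks were thus fewer but of the usual strength for weak peaks. In replicate 2 the median signal was 17.3 over 51 summits at Cpr genes, close to the whole list's median of 18.0, with a list floor of 12.5. In replicate 3 it was 18.2 over 38 summits, below the whole list's median of 23.8, with a list floor of 14.6. These whole-list medians include each replicate's strong peaks, unlike the pooled median of 35.1.

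Of the 35 pooled summits, 15 lay within 500 bp of an annotated start site of any gene, 11 were intergenic, 8 intronic and 1 exonic. Introns and exons of any protein-coding gene were counted. The strongest summits of Cpr73D and Cpr50Cb and the summit of Cpr11B were intronic but lay outside those Cpr genes. Over the 35, the start site nearest to the summit was that of a Cpr gene for 19 and of another gene for 16.

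**Figure D2:**
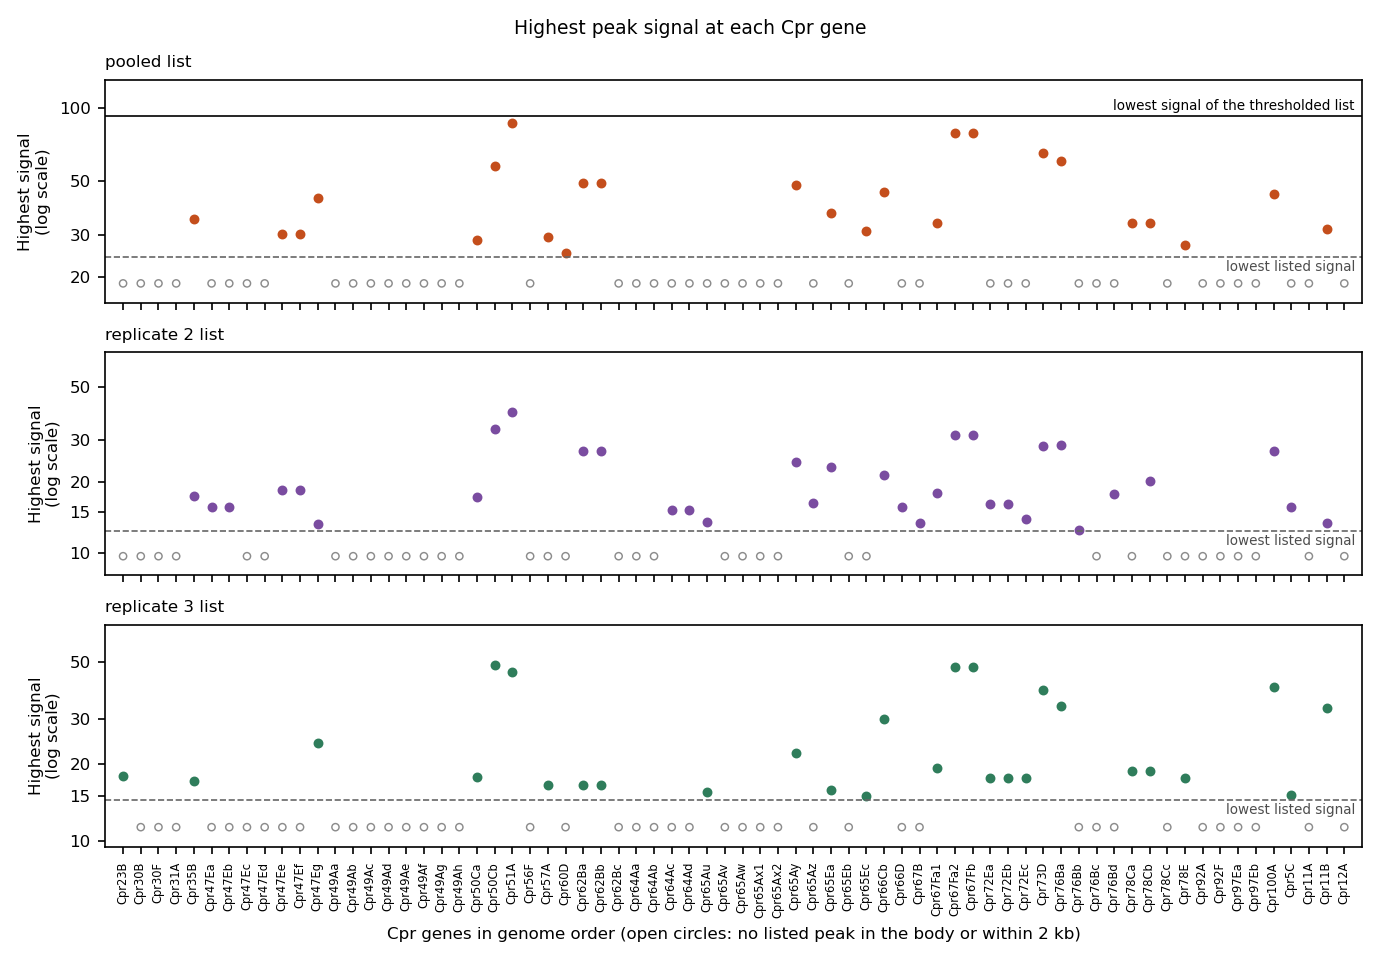
Each point is the highest peak signal (log scale, the authors' own units) in the body or within 2 kb of 1 Cpr gene, in genome order, in the pooled, replicate 2 and replicate 3 lists. Open circles are genes with no listed peak, the dashed line is the lowest signal of each list, and the solid line in the top panel is the lowest signal of the thresholded list, 92.5, which no Cpr gene reached.

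The peaks nearest to the threshold were at Cpr51A, Cpr67Fb, Cpr73D, Cpr76Ba and Cpr50Cb. The strongest was in Cpr51A on arm 2R, with pooled signal 86.5 (rank 3734 of 30000), 39.4 in replicate 2 and 45.8 in replicate 3. Its summit lay 1731 bp inside the gene from its 5′ end and 550 bp from the start site of CG30197. Cpr50Cb had 3 pooled summits, the strongest of signal 57.8, and the nearest start site to all of them was that of stj, which codes for a subunit of a voltage-gated calcium channel. Its strongest peak had signal 48.9 in replicate 3 and no match within 100 bp in replicate 2.

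The strongest peak nearest to a Cpr start site lay between the tandem copies Cpr67Fa2 and Cpr67Fb, 502 bp before the 5′ end of Cpr67Fb, with pooled signal 79.0 (rank 4417), 18.7 in replicate 2 and 47.9 in replicate 3. Cpr73D, a long member of 18590 bp, had 5 pooled summits. The strongest lay 896 bp before its 5′ end, in an intron of another gene, with pooled signal 65.3 and 33.9 in replicate 3. No replicate 2 summit was within 100 bp. A further pair of its summits, of signal 62.2 and 58.7, lay 379 bp and 65 bp from a start site of Ogdh, an enzyme gene of the citric acid cycle that overlaps it. Cpr76Ba had 1 summit, 1622 bp past its 5′ end and so beyond its 3′ end, with pooled signal 60.1, 28.6 in replicate 2 and 33.9 in replicate 3. The summit 374 bp before Cpr62Ba had pooled signal 48.8, 27.0 in replicate 2 and 16.5 in replicate 3. All 4 summits were listed in replicate 3, and 3 of the 4 also in replicate 2.

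The 101 bases centred on these 4 summits are shown because these are the 4 strongest pooled summits whose nearest start site is that of a Cpr gene. They are read from the plus strand of the dm6 genome, and capitals mark the E-box CANNTG, the word that basic helix-loop-helix factors such as Hand bind.
Cpr67Fb, chr3L:10893621-10893721: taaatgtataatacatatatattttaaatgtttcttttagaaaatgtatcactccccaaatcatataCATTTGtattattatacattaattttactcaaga
Cpr73D, chr3L:16958535-16958635: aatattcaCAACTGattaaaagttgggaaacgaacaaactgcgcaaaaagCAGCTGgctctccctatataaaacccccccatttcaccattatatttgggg
Cpr76Ba, chr3L:19516660-19516760: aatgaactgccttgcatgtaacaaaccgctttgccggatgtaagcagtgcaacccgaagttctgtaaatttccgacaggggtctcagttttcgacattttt
Cpr62Ba, chr3L:1832107-1832207: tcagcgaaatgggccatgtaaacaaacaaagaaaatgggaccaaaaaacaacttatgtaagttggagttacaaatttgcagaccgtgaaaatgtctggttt
The Cpr67Fb window held 1 E-box and 81.2% A or T, and the Cpr73D window held 2 E-boxes. The windows of Cpr76Ba and Cpr62Ba held 0. Over all 35 pooled summits at Cpr genes, 17 windows of this length (48.6%) held an E-box, against 42.0% of the 26690 pooled summits outside the thresholded list and 34.7% of the thresholded summits. Their median was 64.4% A or T, against 56.4% and 66.3% for those same sets.

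Most Cpr genes sit in tandem clusters. Runs of at least 3 members, each within 20 kb of the next, numbered 10 and held 45 of the 70 genes. None of the 45 had a thresholded summit, 14 (31.1%) had a pooled one, 23 (51.1%) had one in replicate 2 and 16 (35.6%) in replicate 3. Over all genes the shares in these lists were 25.7%, 74.4%, 76.9% and 74.6%, in the same order. Of the 25 Cpr genes outside clusters, 0 had a thresholded summit, 11 (44.0%) had a pooled one, 11 (44.0%) had one in replicate 2 and 12 (48.0%) in replicate 3. These 25 genes were longer, with a median of 1664 bp against 868 bp. Inside the 10 cluster spans, 169 kb in all, there were 0 thresholded summits, against 2.47 per 100 kb over the arms. The pooled list had 11 summits there (6.49 per 100 kb), against 22.4 per 100 kb over the arms. Replicate 2 had 12.4 per 100 kb and replicate 3 had 7.08, against the same 22.4, since each of these 3 lists holds 30000 peaks.

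The largest cluster, Cpr49Aa to Cpr49Ah at 2R 12376626-12415170 (dm6), had no summit in any list. Its 8 genes and the 7 other genes between them spanned 38.5 kb, and the nearest thresholded summit was 20.8 kb away, 128 bp from the start site of DUBAI, with pooled signal 185. The cluster Cpr65Au to Cpr65Az, at 3L 6131242-6161589, held 7 Cpr genes among 11 others, 10 of which code for larval and adult cuticle proteins of the Lcp65A and Acp65A series. None of these Cpr or other genes had a thresholded summit, and the closest was 23.6 kb off, 24 bp from the start site of CG43293 (signal 161). In Cpr65Au to Cpr65Az the pooled list put 3 summits, of signals 56.6, 47.9 and 26.9. The only summit of these in reach of a Cpr gene, Cpr65Ay, had signal 47.9 and lay 473 bp from the start site of CG13297.

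The remaining clusters were also clear of thresholded summits, at distances of 3.39 to 40.5 kb. Cpr47Ea to Cpr47Eg, with 7 genes over 26.7 kb, had 2 pooled summits inside, 5 in replicate 2 and 3 in replicate 3. In Cpr64Aa to Cpr64Ad, with 4 genes, the pooled and replicate 3 lists had 0 summits, and replicate 2 had 1. Cpr76Ba to Cpr76Bd, also with 4 genes, had 0 pooled summits inside, 2 in replicate 2 and 0 in replicate 3. The clusters of 3 genes were Cpr62Ba to Cpr62Bc, Cpr65Ea to Cpr65Ec, Cpr67Fa1 to Cpr67Fb, Cpr72Ea to Cpr72Ec and Cpr78Ca to Cpr78Cc. In Cpr67Fa1 to Cpr67Fb all 3 genes had a pooled peak within reach, and in Cpr72Ea to Cpr72Ec none had, though all 3 had a weak summit in each replicate's list, with highest signals of at most 16.1 in replicate 2 and of 17.7 in replicate 3.

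**Figure D3:**
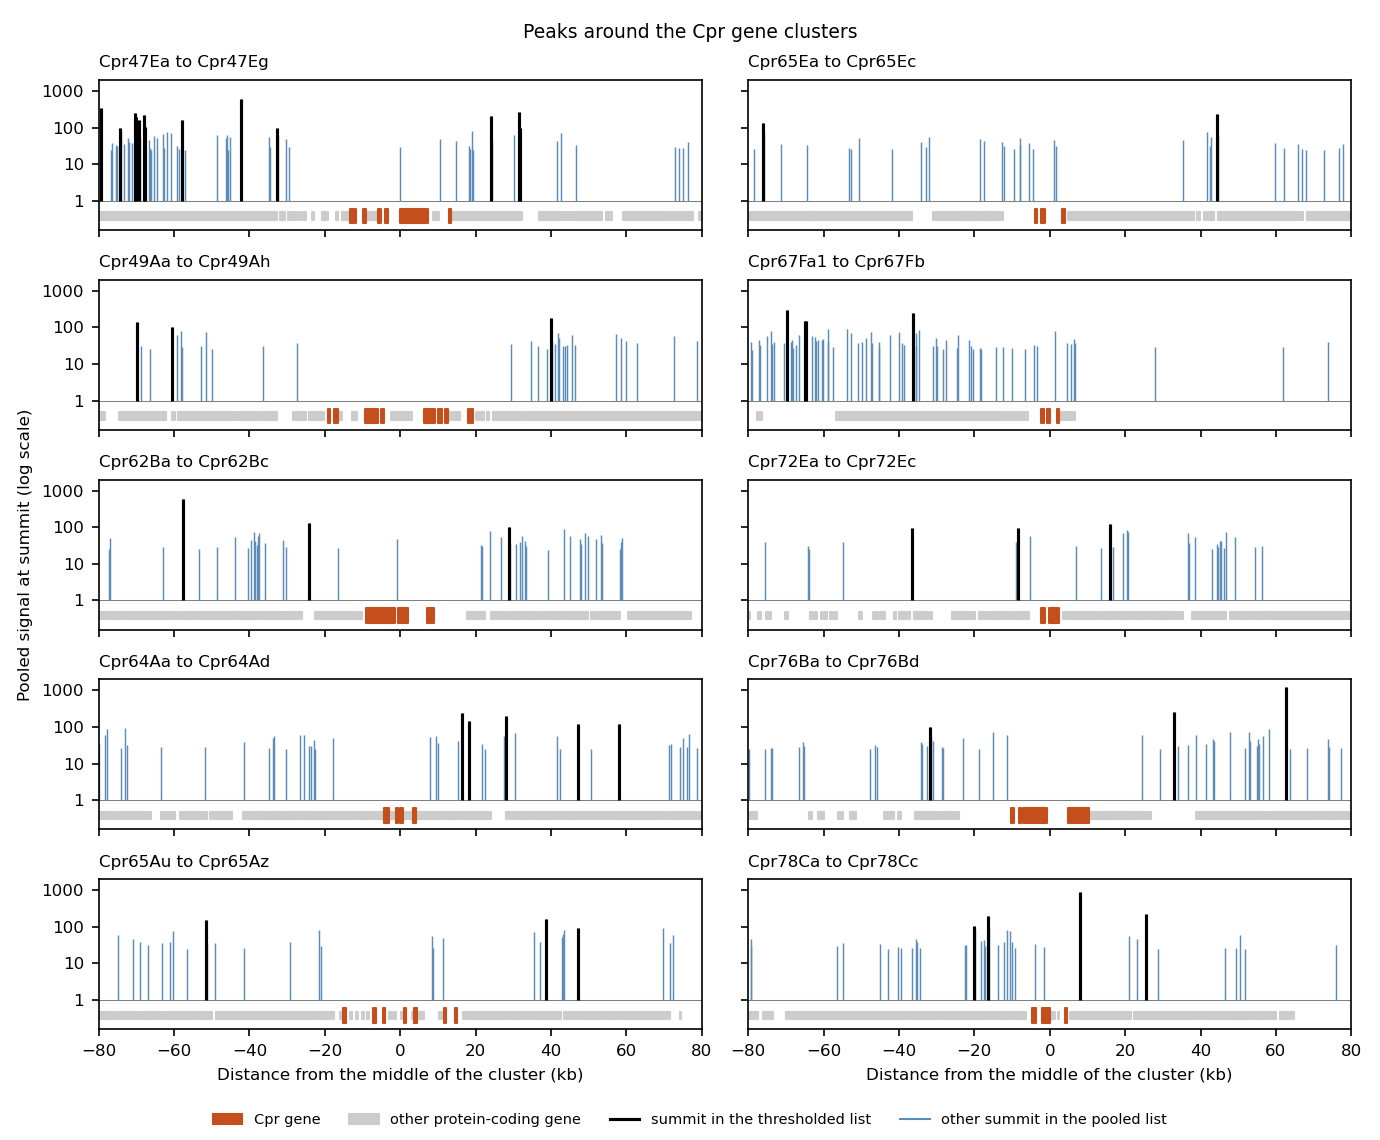
Each panel shows 80 kb on either side of the middle of 1 of the 10 Cpr clusters (horizontal axis, kb), with Cpr genes in orange and other protein-coding genes in grey below the line and the pooled signal of each summit above it (log scale, thresholded summits in black). No black line stands over an orange gene, while every panel has black lines within 80 kb.

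Genes next to the family had peaks about as often as genes in general. Of the 589 other protein-coding genes within 50 kb of a Cpr gene, 170 (28.9%) had a thresholded summit and 433 (73.5%) a pooled one, close to the 25.7% and 74.4% of all genes. With replicate 3's strongest peaks the neighbours' share was 27.7% and with replicate 2's 25.3%. The share was below that of all genes, at 22.5%, over the 293 genes within 20 kb, and 22.2% for the 5 nearest genes on each side. Of the neighbours, 14 were themselves cuticle protein genes of the other lists below, and 0 of these 14 had a thresholded summit and 1 a pooled one. The other 575 had one in 29.6% of cases.

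Several peaks at genes within 50 kb of a cluster were strong, though some of their summits lay farther off. At Cpr78Ca to Cpr78Cc (3L 21291860-21301171) a thresholded peak of pooled signal 883, with 337 in replicate 2 and 549 in replicate 3, had its summit 3391 bp beyond Cpr78Cc and 95 bp from the start site of CG11309. The Polycomb gene Pc was also in its reach. Beside Cpr76Ba to Cpr76Bd the peak in reach of CG9330 had signal 1271, and its summit was 52.3 kb from the cluster and 96 bp from the start site of CG14100. The strongest peak of shn, which codes for a zinc-finger factor of the bone morphogenetic protein pathway, had signal 756 and lay 78.1 kb from Cpr47Ea to Cpr47Eg. Near Cpr62Ba to Cpr62Bc a peak of signal 575 was 127 bp from the start site of the DNA polymerase delta gene PolD2. Weaker leading peaks stood at tna (244), near Cpr67Fa1 to Cpr67Fb, and inside ImpL2 with CG46460 in reach (243), near Cpr64Aa to Cpr64Ad. Others stood at Acbp2 and melt (229), near Cpr65Ea to Cpr65Ec, and at Agpat4 (124), near Cpr72Ea to Cpr72Ec. Each of these 8 peaks had a summit within 100 bp in both replicates.

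The distance from a Cpr gene to the nearest thresholded summit had a median of 23.1 kb, with quartiles at 15.3 and 36.2 kb, against a median of 7.66 kb for the neighbouring genes and 9.50 kb for all genes. More than 20 kb separated 42 of 70 Cpr genes (60.0%) from a thresholded summit, against 24.8% of neighbours and 32.2% of all genes. The closest was Cpr78Cc, at 3.39 kb, and the farthest Cpr78E, at 149 kb. With the window widened to 5 kb, 2 Cpr genes had a thresholded summit, Cpr78Cc and Cpr67B, against 37.3% of all genes. The Cpr67B peak had signal 145 and lay 66 bp from the start site of CG4022. By nearest start site, 1 of 70 Cpr genes had a thresholded summit, Cpr92A, against 16.2% of all genes. The summit lay 14017 bp from the start of Cpr92A, with signal 106.

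**Figure D4:**
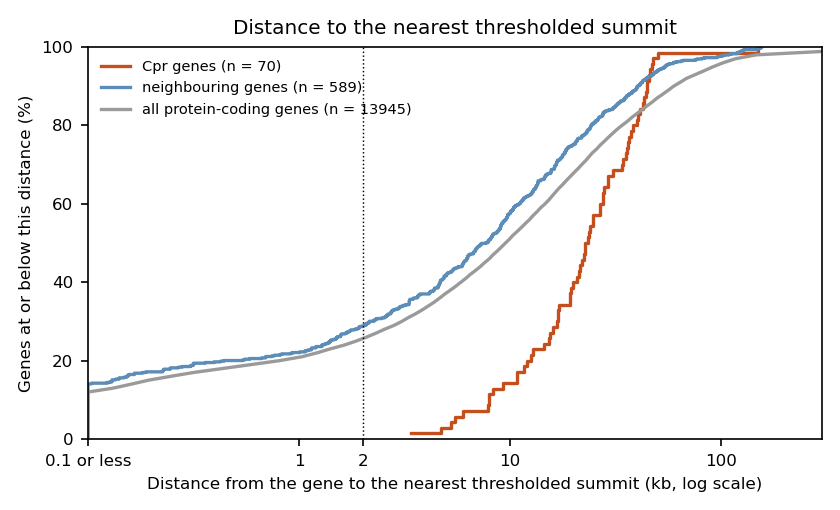
Curves give the share of genes (%) whose nearest thresholded summit lies at or below the distance on the horizontal axis (kb, log scale), for 70 Cpr genes, 589 neighbouring genes and all 13945 protein-coding genes, with the 2-kb window dotted. The Cpr curve starts at 3.39 kb and crosses its middle at 23.1 kb, to the right of the other curves.

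Across the genome the members were spread over 5 arms. Arm 3L held 35 (14 with a pooled peak), 2R 21 (8), 2L 5 (1), 3R 5 (1) and X 4 (1). Over all genes of the arms together 74.4% had a pooled peak, and the share by arm was not computed. A summit was listed in neither replicate for 44.3% of Cpr genes and 15.8% of all genes. No peak in any of the lists, the pooled list included, was in reach of 30 Cpr genes, a share not counted over all genes. They were the 8 genes of the Cpr49Aa to Cpr49Ah cluster, Cpr30B, Cpr30F, Cpr31A, Cpr47Ec, Cpr47Ed, Cpr56F, Cpr62Bc, Cpr64Aa, Cpr64Ab, Cpr65Av, Cpr65Aw, Cpr65Ax1, Cpr65Ax2, Cpr65Eb, Cpr76Bc, Cpr78Cc, Cpr92A, Cpr92F, Cpr97Ea, Cpr97Eb, Cpr11A and Cpr12A. The windows of Cpr65Ax1 and Cpr65Ax2 are among the repeated ones given above.

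What the members shared beyond their names was sought in their promoters and proteins. A TATA box, the core promoter element near which transcription starts, was common. The word TATAAA on the gene's own strand, starting no more than 45 bases before the annotated 5′ end and ending no fewer than 15 before it, was found in 39 of 70 Cpr genes (55.7%), against 11.4% of neighbouring genes and 8.75% of all genes. It was in 13 of the 25 Cpr genes with a pooled peak and in 26 of the 45 without. The promoter windows, 250 bases before to 50 after the 5′ end, had a median of 54.5% A or T in Cpr genes, 60.7% in neighbours and 62.0% in all genes.

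Promoter windows of 3 members are shown to set genes with a weak peak beside a gene without, each 5′ to 3′ on the gene's strand with TATAAA in capitals (dm6). Cpr67Fb has its weak peak upstream of the window, Cpr78Ca has a pooled summit of signal 33.4 inside its 5′ end (18.8 in replicate 3, none within 100 bp in replicate 2), just past the window, and Cpr65Av has no peak in any list.
Cpr67Fb, chr3L:10893923-10894222, plus strand: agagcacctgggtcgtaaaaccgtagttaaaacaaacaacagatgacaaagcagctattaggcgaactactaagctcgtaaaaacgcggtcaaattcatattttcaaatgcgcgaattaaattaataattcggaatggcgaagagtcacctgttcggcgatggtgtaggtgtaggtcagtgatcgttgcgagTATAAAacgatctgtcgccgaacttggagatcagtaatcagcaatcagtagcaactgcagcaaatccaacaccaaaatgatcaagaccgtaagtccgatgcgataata
Cpr78Ca, chr3L:21292751-21293050, minus strand: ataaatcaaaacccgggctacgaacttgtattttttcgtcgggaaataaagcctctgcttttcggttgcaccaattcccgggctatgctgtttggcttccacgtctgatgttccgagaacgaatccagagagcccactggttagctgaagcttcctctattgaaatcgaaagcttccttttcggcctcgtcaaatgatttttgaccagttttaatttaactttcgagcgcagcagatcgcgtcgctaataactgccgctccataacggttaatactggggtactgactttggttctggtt
Cpr65Av, chr3L:6139925-6140224, minus strand: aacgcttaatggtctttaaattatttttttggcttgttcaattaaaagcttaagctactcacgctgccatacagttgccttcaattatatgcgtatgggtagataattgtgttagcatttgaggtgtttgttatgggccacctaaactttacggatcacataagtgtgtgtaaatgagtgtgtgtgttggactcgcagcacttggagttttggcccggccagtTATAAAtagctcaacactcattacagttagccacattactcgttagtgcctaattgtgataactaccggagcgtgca
The TATAAA of Cpr65Av starts 27 bases before its annotated 5′ end. That of Cpr67Fb starts 58 bases before it and so was not counted above, and Cpr78Ca has none in the window. All 3 windows hold an E-box. These 3 genes do not stand for the family, where the counted TATAAA was in 13 of 25 genes with a pooled peak and in 26 of 45 without.

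The proteins were translated from the longest annotated coding sequence of each gene, giving a median of 179.5 residues, against 394 for genes outside the Cpr family and the list of other R&R proteins. The strict published form of the R&R consensus (9 fixed residues at set spacings) was found whole in 5 of 70 Cpr proteins and with 1 residue free in 19. Among 28 other cuticle proteins listed as carrying the domain, it was whole in 7 and found with 1 residue free in 10. It was found in 0 of the 13847 other proteins in either form, the 26 Tweedle proteins included. The strict pattern marks a minority of the family.

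Genes around the Cpr family in cuticle formation were described from 7 lists named by function. Thresholded peaks were few at other cuticle structural proteins too, again beside 25.7% of all genes. Of 28 cuticle proteins with the R&R domain under other names (the Lcp, Ccp84A and Edg series and others), 2 had a thresholded summit. They were the pupal cuticle gene Pcp (signal 154), whose summit was 248 bp from a start site of Gart, and resilin (97.9), the gene of an elastic cuticle protein, whose summit was 286 bp from that of RalGPS. Among 26 genes of the Tweedle family, another group of cuticle proteins, 1 had one, Tb, with signal 116, 56.7 in replicate 2 and 56.7 in replicate 3. Of 10 peritrophin-like chitin-binding proteins, 0 did. A pooled peak was in reach of 5 of the 28 R&R genes (17.9%), 12 of the 26 Tweedle genes (46.2%) and 5 of the 10 peritrophin-like genes, against 74.4% of all genes.

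The genes of the remaining lists are longer, and their counts are again set beside 25.7% of all genes. Of 17 genes of chitin synthesis and assembly, with a median length of 7039 bp, 4 (23.5%) had a thresholded summit, near the share of all genes. The strongest were at the chitin deacetylase gene Cda5 (signal 176) and at Idgf6 (169). The summit at Cda5 was 59 bp from the start site of dbr. Of 10 genes of tanning and pigment, 3 did, led by speck (196), an N-acetyltransferase gene, and Pu (119), which codes for GTP cyclohydrolase. The Pu peak had no replicate 3 summit within 100 bp, and the peak of the remaining gene had none in replicate 2. Of 14 genes of the apical matrix and epidermal cell shape, 1 (7.14%) had a thresholded summit, tnc (141), whose peak had no replicate 2 summit within 100 bp. Of 17 regulators, with a median length of 31127 bp, 11 (64.7%) did, and all 17 had a pooled peak, against 74.4% of all genes. The strongest were at nuclear receptor genes of the ecdysone response, Hr3 with signal 548 (195 in replicate 2 and 349 in replicate 3) and Eip75B with 398 (161 and 229). The part that gene length plays in these list differences was not tested. The regulators' own shares in the strongest 3310 peaks were 11 of 17 in replicate 2 and 13 of 17 in replicate 3. Of all genes, 24.5% and 26.3% were reached. The chitin list had 4 genes reached in each replicate, the tanning list 4 and 3, and the apical matrix list 1 and 2.

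**Figure D5:**
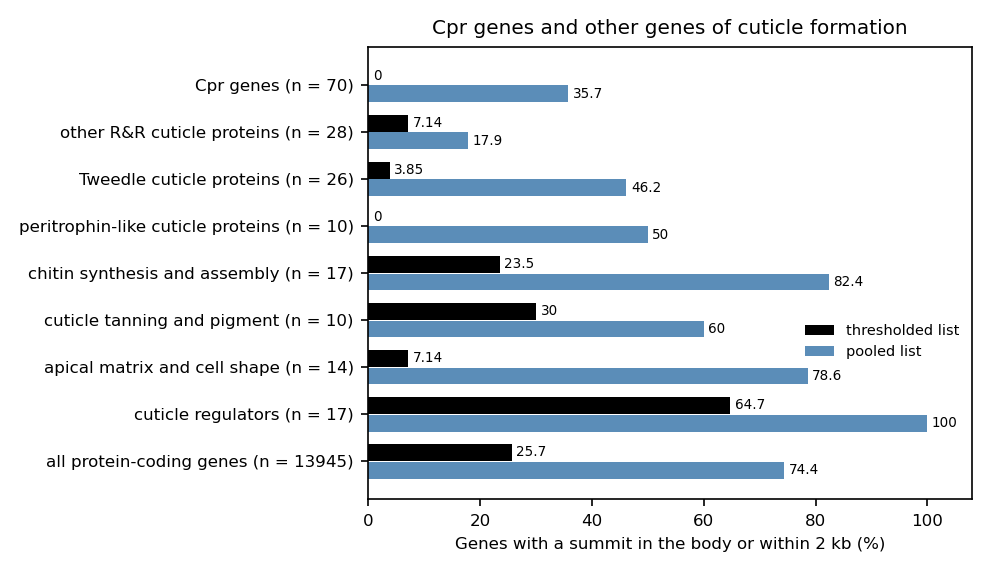
Bars give the share of genes (%) with a thresholded summit (black) and with a pooled summit (blue) in the body or within 2 kb, for the Cpr genes, 7 lists of other genes of cuticle formation and all protein-coding genes. Cpr genes and peritrophin-like proteins are at 0 in the thresholded list, and the regulators reach 64.7%.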

How the data were processed

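Peak lists on the dm6 build were used, 1 for each replicate, 1 pooled and 1 thresholded. The replicate and pooled lists were called by the authors against 1 shared control, and an IDR (reproducibility) step gave the thresholded peaks, per the deposited file listing. Aligner, peak caller, settings and depth: not given in the sources used here. Chromatin was sheared to 200 to 800 bp, per the labels. Signal is the authors' deposited value per peak, not rescaled between lists, and was used only to describe and rank peaks. All 3310 thresholded peaks were the strongest of the pooled list. With 2 replicates and 1 group, no test was run.

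Genes came from Ensembl release 115 and sequence from the same build. All peaks lay within the arm lengths of that genome. A gene had a peak if a summit fell in its body or within 2 kb. The window rule was checked on planted summits. Programs used Python 3.11.15, numpy 2.4.6, scipy 1.17.1 and matplotlib 3.10.9. Neighbours were other genes within 50 kb of a Cpr gene. Alternatives were other windows, distances, cluster gaps of 10 and 50 kb, the stronger 1655 peaks, each replicate's own 3310 strongest peaks and a shorter promoter. Members and lists were chosen with earlier results of these data known. Named genes were the 5 members with the strongest pooled peaks, the ends of each cluster and the 2 strongest of each list. For each cluster the gene within 50 kb with the strongest thresholded peak was also taken, wherever that peak's summit lay. Other named members were chosen after their values were seen, as were the 3 promoters printed. Peaks, genes and overlapping windows are not independent. Of the listed symbols, TwdlU, cypl and 3 Cpap names were not matched.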

Additional observations from a re-analysis of the deposited data

How the results depend on the processing

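The 0 of 70 Cpr genes with a thresholded summit stayed within its exact 95% binomial interval in all 8 alternatives. Some could only give 0, as subsets of the main setting. These were the gene body alone, a narrower window around start sites, the stronger peaks and the middle length quartiles. The others gave 2 genes with 5 kb (37.3% of all genes), 0 without replicate 2 (26.3%), 1 without replicate 3 (24.5%) and 1 by nearest start site (16.2%). The 0 of 45 clustered genes stayed within its interval in all 4 alternatives. Gaps of 10 and 50 kb could only give 0, because 0 of 70 genes had a summit. Leaving out either replicate gave 0 as well. The share with a pooled peak moved with the window, to 8.57% in the gene body alone (43.0% of all genes) and to 55.7% with 5 kb (86.7% of all genes), as a narrower or wider window takes in fewer or more summits. It was 23.5% at the middle length quartiles, an alternative chosen after seeing the data, and 40.0% to 48.6% with 1 replicate left out. In each of these settings it was below the share of all genes. Neighbours had a thresholded summit in 22.5% within 20 kb, 28.9% within 50 kb, 26.0% within 100 kb, 22.2% for the 5 nearest genes on each side, and 25.3% to 27.7% with 1 replicate left out, and the cause of these shifts was not tested. With a promoter of 100 bases before to 50 after the 5′ end, which is shorter by construction, the share of Cpr promoters was 54.3% for CANNTG (55.5% of all promoters), 7.14% for CATCTG (6.09%), 10% for TAAACA (16.2%), 14.3% for GAGAG (18.0%) and 1.43% for CAGGTA (3.10%). For CANNTG and GAGAG the Cpr share was above that of all promoters in the longer window and below it in the shorter, and 6 other words stayed within their interval. A median signal of thresholded peaks could not be given because no member had one. No paired analysis was possible because there is 1 group. Depth is unknown, so a missing peak is not evidence of no binding.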

Other observations

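The word CATCTG, a form of the E-box, was in the promoter window (250 bases before to 50 after the 5′ end, either strand) of 18 of 70 Cpr genes (25.7%), against 12.7% of neighbouring genes and 11.3% of all genes. Of the 18 Cpr genes with it, 8 had a pooled peak, and of the 52 without it, 17 did. In the shorter promoter the share was 7.14% of Cpr genes, against 6.09% of all genes. The general E-box CANNTG, which includes CATCTG, was in 81.4% of Cpr promoters and 77.2% of all promoters.

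Other words differed in direction. GATAAG, bound by GATA factors, was in 4 of 70 (5.71%), against 18.9% of all, and TATCGATA, the DREF word, in 1 (1.43%), against 9.36%. TAAACA, a forkhead word, was in 24.3% against 32.5%. The Grainyhead word AACCGGTT and the word AAGGTCA of Ftz-F1 and related receptors were in 0 of 70, against 0.753% and 2.11% of all promoters. GAGAG, bound by Trl, was in 32.9% against 29.7%, CAGGTA, the Zelda word, in 5.71% against 6.24%, and TCAGTT, an initiator word, in 32.9% against 26.1%. TATAAA on either strand was in 49 of 70, against 45.8%. All were searched on both strands, a match is only a description of the letters, and base composition differed between the sets as given above.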
